A study of Mus musculus with 10 samples.

Results

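Igkv2-109 and Igkv2-112 are 2 of the 114 variable (V) segments of the mouse immunoglobulin kappa light chain locus, Igk, found in a repertoire of transcripts from small pre-B cells. They were chosen by name, as every line of the deposited table whose V call, without its allele, was IGKV2-109 or IGKV2-112. Igkv2-109 had 905 counts on 384 lines and Igkv2-112 had 1358 counts on 525 lines. Together these were 2263 of 161780 counts, or 1.40%, and 909 of 49079 lines. The study took FACS-purified small pre-B cells from the bone marrow of mice on the C57Bl6 background, aged 6 to 12 weeks, and compared 5 samples labelled WT with 5 labelled rsCBE. The design text writes the mutant genotype as ΔrsCBE, the labels do not spell the name out, and a further mutant named there was not analysed here. The labels give no other allele or agent for either group and do not say that samples came from separate animals, so p-values measure the spread between these samples, part of which may be technical. Only Igk sequences were measured, so neither the cell type nor the mutation could be checked against other genes.

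A kappa light chain gene is assembled in developing B cells when the RAG recombinase cuts beside 1 V segment and 1 J segment and the cut ends are joined. The ends can lose bases or gain a few before they are joined, and the join forms the CDR3, the most variable loop of the light chain. A join that shifts the reading frame or creates a stop codon gives no light chain, and the locus can then rearrange again between an upstream V segment and a downstream J segment, a process also used to replace self-reactive receptors and called receptor editing.

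Both segments lie in the part of the locus far from the J segments and on the same strand as these, so each joins by deletion of the DNA between them. In the GENCODE annotation of GRCm38 (mm10), Igkv2-109 (ENSMUSG00000105606.1) is at chr6:68302427-68303158 on the forward strand, with exons at 68302427 to 68302487 and 68302846 to 68303158. Igkv2-112 (ENSMUSG00000076518.6) is at chr6:68219981-68220706, also on the forward strand, with exons at 68219981 to 68220029 and 68220395 to 68220706. They are 81.72 kb apart and 2.42 and 2.5 Mb from J1, with 2 other V segments, Igkv1-110 and Igkv14-111, between them. Both are annotated as functional V genes, with 0 stop codons in 113 codons of the germline reading frame. Over the 270 bases that end at the conserved cysteine before the CDR3, they are identical at 227 positions, or 84.1%. Igkv2-109 is closer to the other Igkv2 segments of the table, with 95.9% identity to the pseudogene Igkv2-116 and 90.7% to Igkv2-137.

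The germline bases that each V segment can bring to the CDR3 are shown first so that the joins described later can be read against them. They run 5′ to 3′ from the base after the cysteine codon to the end of the annotated segment. Capitals mark the 3 bases CTC where they occur within the last 5 bases of the V end, and at their place in J5.
Igkv2-109: gctcaaaatctagaacttcCTCc
Igkv2-112: caacaacttgtagagtatcCTC
Igkv2-116: gctcaactgctagaactccCTCc
Igkv2-137: atgcaacatctagaatatccttt
The J segments follow in the same way, from their first base to the end of the CDR3.
J1: gtggacg
J2: tgtacacg
J4: attcacg
J5: gCTCacg
Igkv2-112 brings 22 bases and ends in CTC, while Igkv2-109 brings 23 and has 1 more base after its CTC. The V calls were compared with the germline on the first 9 bases of the CDR3. Whether these bases also served to make the call is not known, so the comparison may not be independent of it. These equalled the germline of the called segment in 854 of 905 counts of Igkv2-109 (94.4%) and in 1259 of 1358 counts of Igkv2-112 (92.7%), and they equalled that of another Igkv2 segment in 0 counts of either.

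Total counts per sample ran from 3109 to 24083. Replicates 1 and 2 of each genotype were given as 1 library each, and replicates 3, 4 and 5 as 2 parts, a and b, which were added up. The labels name no batch, so values are also given for the 4 samples of 1 library and for the 6 samples of 2 parts. WT replicate 4 was the shallowest sample and held 18 counts of Igkv2-109 and 14 of Igkv2-112.

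Igkv2-109 and Igkv2-112 were both used at an intermediate level, and for neither did a difference in usage between the genotypes pass the test. Igkv2-109 took 0.760, 0.491, 0.514, 0.579 and 0.579% of all counts in WT replicates 1 to 5 and 0.465, 0.575, 0.602, 0.569 and 0.412% in rsCBE replicates 1 to 5. WT replicate 1 was the highest and rsCBE replicate 5 the lowest, and the genotypes overlapped, at 0.584% ± 0.106 (SD, n = 5) and 0.525% ± 0.0819 (SD, n = 5). The log2 fold change of rsCBE over WT was -0.16 ± 0.23 (SE), with an adjusted p of 0.992 in edgeR's quasi-likelihood test over 98 V segments. It was -0.03 without WT replicate 1 and -0.08 without rsCBE replicate 5. Igkv2-112 took 0.725, 0.898, 0.796, 0.450 and 0.535% in WT and 0.938, 1.01, 0.778, 0.703 and 1.07% in rsCBE. Its 2 lowest samples were WT replicates 4 and 5 and its 2 highest were rsCBE replicates 2 and 5, but the genotypes overlapped, at 0.681% ± 0.185 (SD, n = 5) and 0.90% ± 0.156 (SD, n = 5). Its log2 fold change was 0.38 ± 0.23 (SE), with an adjusted p of 0.958 in the same edgeR test. The test called 0 of 98 V segments (0%), and 7 (7.14%) had an unadjusted p under 0.05, neither of these among them, while DESeq2 called 0 of 114. With the replicate number as a block it called 1 V segment (1.02%), and with a term for the kind of sample 2 (2.04%), again neither of these.

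**Figure D1:**
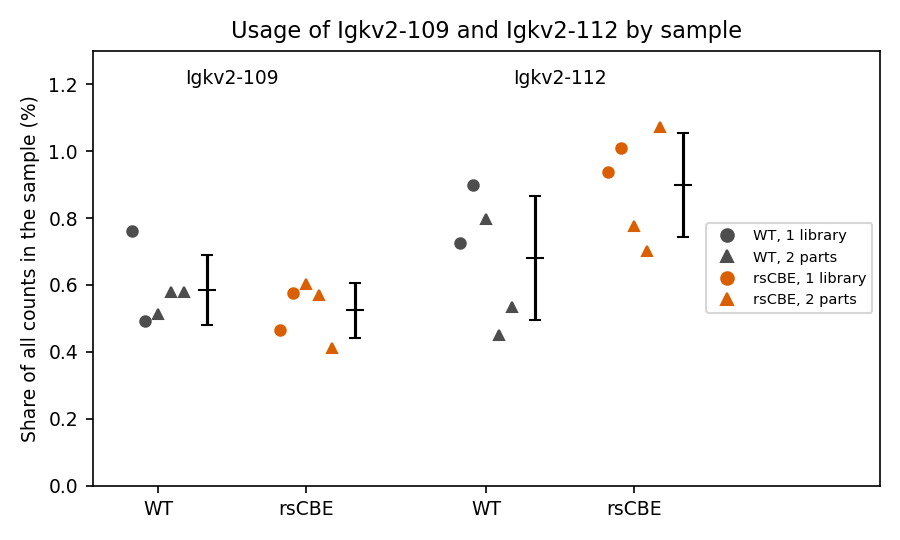
Share of all counts of a sample (%) that fell on Igkv2-109 and Igkv2-112, by genotype. Each point is 1 sample (circles, 1 library; triangles, 2 parts) and the bars give mean and SD over 5 samples. The genotypes overlap for both segments, and the 5 rsCBE samples reach 0.703 to 1.07% for Igkv2-112.

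Counting error was large beside these shares. The 14 counts of Igkv2-112 in WT replicate 4 gave a Wilson 95% interval of 0.268 to 0.754%, and the 226 counts in rsCBE replicate 1 one of 0.824 to 1.07%, and these intervals cover counting error only. The parts of a sample also varied, as Igkv2-109 took 0.402% of part a and 0.796% of part b in rsCBE replicate 4. Within the samples of 1 library the log2 fold change was -0.27 for Igkv2-109 and 0.26 for Igkv2-112, and within the samples of 2 parts -0.06 and 0.47.

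By mean share over the 10 samples, Igkv2-112 ranked 45 and Igkv2-109 ranked 54 of the 114 V segments, at 0.790% and 0.555%. Igkv2-112 had the higher count in 7 of 10 samples, the exceptions being WT replicates 1, 4 and 5. Counts of Igkv2-109 per count of Igkv2-112 were 1.05, 0.547, 0.646, 1.29 and 1.08 in WT and 0.496, 0.570, 0.775, 0.810 and 0.384 in rsCBE. All 5 rsCBE ratios were below 1, and the WT ratios spread on both sides of it. The mean log2 ratio was -0.19 ± 0.53 (SD) in WT and -0.78 ± 0.45 (SD) in rsCBE, a difference of -0.58 (n = 5 each; two-sided exact permutation test, p = 0.103). It was -0.51 within the samples of 1 library and -0.63 within those of 2 parts. Counting each clonotype once, whatever its counts, gave -0.64 with p = 0.0238 in the same exact test, and leaving out WT replicate 2 gave -0.75 with p = 0.0476.

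The other Igkv2 segments and the nearest V segments on the locus by number formed a list of 8, of which 6 had enough counts to be tested and 0 were called. Their log2 fold changes of rsCBE over WT were higher in 4 and lower in 2 and ran from -0.27 to 0.37, with a median of 0.16 beside -0.05 over all V segments tested. The lowest adjusted p was 0.973 in edgeR's test. Of the close relatives, Igkv2-137 took 2.86% of counts and the pseudogene Igkv2-116 took 0.214%. Over the 10 samples, the share of Igkv2-112 was most like that of Igkv1-132, with a Spearman correlation of 0.782, followed by Igkv4-75 (0.770), Igkv2-137 (0.745), Igkv11-125 (0.733) and Igkv8-27 (0.721). For Igkv2-109 the closest were Igkv14-100 (0.442), Igkv6-20 (0.430), Igkv14-126 and Igkv4-80 (both 0.418) and Igkv6-14 (0.358). Among the 92 V segments compared with it, Igkv2-112 was the least like Igkv2-109, at -0.673. These correlations describe shares that sum to a whole within each library, and the points also share the kind of sample.

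The pair differed from each other in their J segments. Igkv2-109 was joined to all of J1, J2, J4 and J5, with 35.3% of its counts on J1 and 33.5% on J5, whereas Igkv2-112 was joined mostly to J5 (50.4%) and J4 (27.9%) and seldom to J1 (4.42%). J3, which carries a defective splice site and is little used in mice, had 0 counts with either segment and 62 in the whole table. For Igkv2-109 the J1 share was 47.4, 34.3, 25.4, 50.0 and 56.6% in WT replicates 1 to 5 and 23.2, 32.1, 21.8, 24.7 and 37.5% in rsCBE replicates 1 to 5. For Igkv2-112 it was 13.3, 6.77, 1.82, 0 and 0% in WT and 6.19, 5.96, 4.93, 2 and 3.20% in rsCBE. The highest value of Igkv2-112 lay below the lowest of Igkv2-109. The 0 counts of J1 allow a share of up to 21.4% in WT replicate 4, which had 14 counts of Igkv2-112, and up to 6.12% in WT replicate 5, which had 49.

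**Figure D2:**
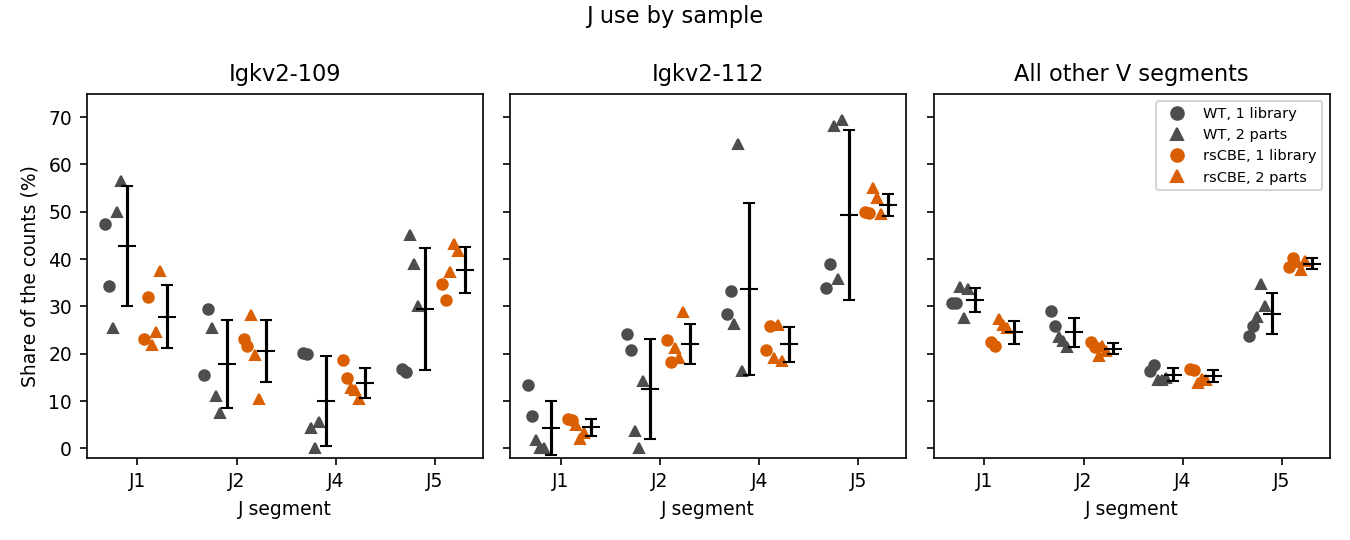
Share of the counts (%) on J1, J2, J4 and J5 for Igkv2-109, Igkv2-112 and all other V segments together. Each point is 1 sample (circles, 1 library; triangles, 2 parts) and the bars give mean and SD over the 5 samples of a genotype. All J1 points of Igkv2-112 lie at or below 13.3%, and its J5 points lie between 33.9 and 69.4%.

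Within samples, the J1 share of Igkv2-109 exceeded that of Igkv2-112 by 30.9 percentage points ± 13.3 (SD, n = 10), in 10 of 10 samples (two-sided exact sign-flip permutation test, p = 0.00195, adjusted p = 0.00293 over 6 measures). That p is the smallest that 10 samples allow. The J4 shares, 11.9 and 27.9%, differed by -15.97 points ± 17.8 (SD, n = 10), with Igkv2-109 the lower in 10 of 10 samples (exact adjusted p = 0.00293). Without WT replicate 4, with its 14 counts of Igkv2-112, the J4 difference was -10.6 points (exact adjusted p = 0.00469). With that replicate kept, the mean J4 difference was -23.7 points over the WT samples and -8.20 over the rsCBE samples. The J5 share of Igkv2-109 minus that of Igkv2-112 was -16.8 points ± 11.1 (SD, n = 10), lower in 9 of 10 samples (exact adjusted p = 0.00391), with WT replicate 4 as the exception. The J2 shares, 19.2 and 17.3%, differed by 1.91 points and did not pass the test (exact p = 0.594).

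Against all other V segments of the same library, Igkv2-112 passed the test for J1, J4 and J5 and Igkv2-109 for no J segment. The J1 share of Igkv2-112 was lower in 10 of 10 samples, with a mean difference of -23.6 points (exact sign-flip test, adjusted p = 0.00339 over the 66 V segments with at least 10 counts in every sample). Of these 66, 30 (45.5%) were called lower in J1, and only 6 had a lower mean J1 share than Igkv2-112. Its J4 share, 27.9% ± 13.8 (SD, n = 10), was higher by 12.5 points in 10 of 10 samples (exact adjusted p = 0.0129), where 12 of 66 (18.2%) were called higher. Without WT replicate 4 the share was 23.9% ± 5.54 (SD, n = 9) and the difference 8.36 points (exact adjusted p = 0.0172). Its J5 share was higher by 16.6 points ± 12.9 (SD, n = 10) in 10 of 10 samples (exact adjusted p = 0.00516), with 20 of 66 (30.3%) called higher. Igkv2-109 differed from all other V segments by 7.53 points in J1 (exact adjusted p = 0.0876), -3.54 in J2 (0.372), -3.56 in J4 (0.168) and -0.37 in J5 (0.939), none past the threshold. Its J4 difference ran from -4.37 to -2.32 points when leaving out 1 sample. With each clonotype counted once, Igkv2-109 passed for J1, at 10.8 points above all other V segments (exact adjusted p = 0.00645), and for J5, at -4.29 points (0.0198).

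Between the genotypes, no J share of either segment passed the test. The J5 share of Igkv2-109 was 16.8, 16.2, 45.1, 38.9 and 30.2% in WT and 34.8, 31.3, 37.3, 43.2 and 41.7% in rsCBE, with the 2 lowest values in WT replicates 1 and 2 and the highest in WT replicate 3. The means were 29.4% ± 12.9 and 37.7% ± 4.87 (SD, n = 5 each), a difference of 8.24 points (exact permutation p = 0.246, adjusted p = 0.361), and it was 16.6 points within the samples of 1 library and 2.67 within those of 2 parts. It was 5.08 points without WT replicate 1 and 4.94 without WT replicate 2. The J5 share of Igkv2-112 was 33.9, 39.1, 68.2, 35.7 and 69.4% in WT and 50.0, 49.8, 54.9, 53.0 and 49.6% in rsCBE. All rsCBE values fell between the lowest and the highest WT values, and the means of 49.3% ± 17.9 and 51.5% ± 2.39 (SD, n = 5 each) differed by 2.21 points (exact permutation p = 0.841, adjusted p = 0.881). The difference for Igkv2-112 was 13.4 points within the samples of 1 library and -5.25 within those of 2 parts. Over all 66 V segments the median difference in J5 share was 9.41 points, 62 (93.9%) were higher in rsCBE, 27 (40.9%) had an unadjusted p under 0.05, and 0 (0%) an adjusted one. In 10 V segments (15.2%), neither of these among them, all rsCBE samples were above all WT samples.

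The J1 share of Igkv2-109 averaged 42.7% ± 12.7 over the WT samples and 27.9% ± 6.69 over the rsCBE samples (SD, n = 5 each), and the means differed by -14.9 points (exact permutation p = 0.0556, adjusted p = 0.204). It was -13.2 within the samples of 1 library and -15.98 within those of 2 parts. The share was lower in rsCBE in 5 of 5 same-numbered pairs, but 5 pairs cannot give an exact p below 0.0625, so a test of the pairs could not pass. The labels give replicate numbers but do not say that same-numbered samples belong together. WT replicates 2 and 3, at 34.3 and 25.4%, lay within the rsCBE range of 21.8 to 37.5%. The J1 share of Igkv2-112 averaged 4.38% ± 5.72 over the WT samples and 4.46% ± 1.81 over the rsCBE samples (SD, n = 5 each; exact permutation p = 0.976). The median difference over the 66 V segments was -4.19 points, with 58 (87.9%) lower in rsCBE, 16 (24.2%) at an unadjusted p under 0.05, and 0 (0%) called. For Igkv2-112 the J2 share averaged 12.6% ± 10.6 over the WT samples and 22.0% ± 4.2 over the rsCBE samples (SD, n = 5 each; exact permutation p = 0.119), and the J4 share 33.8% ± 18.2 and 22.0% ± 3.71 (SD, n = 5 each; exact permutation p = 0.159). WT replicate 4 moved both: without it the J4 difference of Igkv2-112 went from -11.7 to -4.09 points, and the J2 difference from 9.45 to 6.30.

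Tested as V-J pairs across the whole repertoire, 7 of the 8 pairs of these segments had enough counts and 0 were called by edgeR's quasi-likelihood test, where 0 of 270 pairs (0%) were. With genotype as the single term, none of the 7 had an unadjusted p under 0.05, against 25 of 270 (9.26%), and DESeq2 called 2 pairs, neither of them with these segments. Igkv2-109 with J1 took 0.255% of all counts in WT and 0.144% in rsCBE, a log2 fold change of -0.81 ± 0.42 (SE) with an edgeR adjusted p of 0.503. Igkv2-112 with J2 took 0.0936 and 0.201%, a log2 fold change of 0.93 ± 0.60 (SE) with an edgeR adjusted p of 0.635. It was 0.14 in the samples of 1 library and 2.27 in those of 2 parts, and edgeR's unadjusted p for it was 0.0356 with a term for the kind of sample and 0.0386 with the replicate block, with adjusted p of 0.212 and 0.231. In the samples of 2 parts alone the unadjusted edgeR p was 0.0216 (adjusted p = 0.588). Igkv2-112 with J5 had a log2 fold change of 0.70 ± 0.29 (SE) in the samples of 1 library, with an unadjusted edgeR p of 0.0256 and an adjusted p of 0.0991. Igkv2-109 with J1 had an unadjusted edgeR p of 0.0459 with the term for the kind of sample, and an adjusted p of 0.234. Igkv2-112 with J1 had too few counts for the test over all 10 samples. In the samples of 1 library alone its log2 fold change was -0.42 ± 0.40 (SE), with an edgeR adjusted p of 0.547.

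By counts within a sample, Igkv2-112 was less often in-frame than Igkv2-109. A join was called in-frame where the CDR3 length was a multiple of 3 and held no stop codon. Igkv2-109 was in-frame in 83.2, 64.8, 91.5, 55.6 and 64.2% of its counts in WT replicates 1 to 5 and in 67.0, 61.9, 70.9, 65.4 and 81.3% in rsCBE replicates 1 to 5. Igkv2-112 was in-frame in 63.6, 55.7, 65.5, 21.4 and 28.6% in WT and in 58.4, 51.9, 40.8, 43.0 and 61.6% in rsCBE. The 2 lowest values of Igkv2-112 came from WT replicates 4 and 5, with 14 and 49 counts. Igkv2-109 was higher in 10 of 10 samples, by 8.56 to 35.6 points and a mean of 21.5 ± 10.1 (SD, n = 10; exact sign-flip adjusted p = 0.00293).

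**Figure D3:**
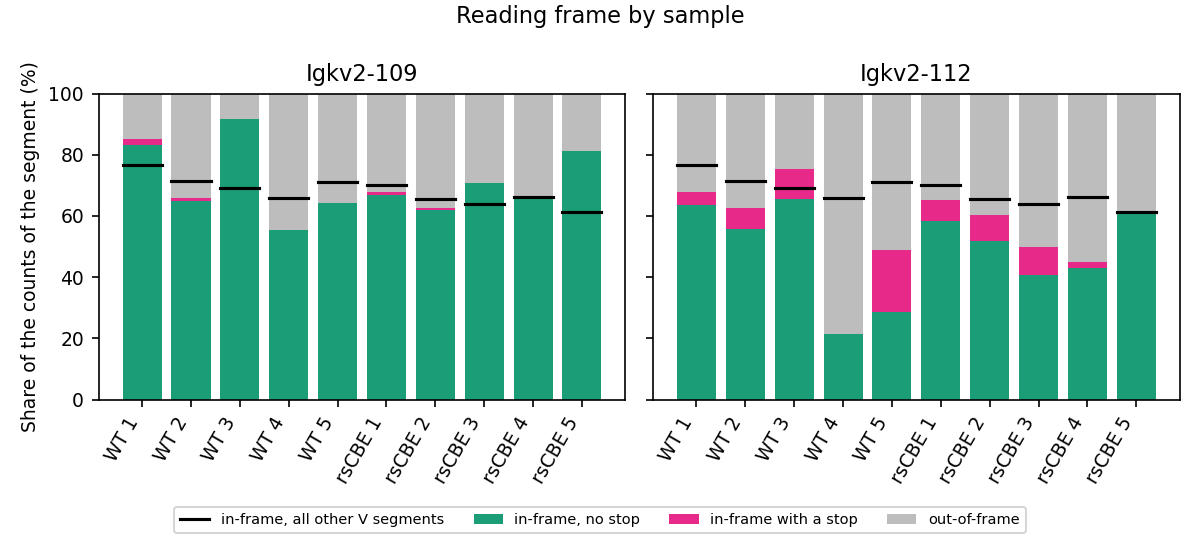
Share of the counts (%) of Igkv2-109 and Igkv2-112 that were in-frame without a stop (green), in-frame with a stop codon (pink) or out-of-frame (grey), in each sample; black lines give the in-frame share of all other V segments. Green reaches 55.6 to 91.5% for Igkv2-109 and 21.4 to 65.5% for Igkv2-112.

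All other V segments together were in-frame in 68.1% ± 4.45 of counts (SD, n = 10). Igkv2-112 was lower in 9 of 10 samples, with a mean difference of -19.0 points ± 14.7 (SD, n = 10) and rsCBE replicate 5 as the exception (exact sign-flip adjusted p = 0.0136), and 13 of 66 V segments (19.7%) were called lower. Igkv2-109 differed by 2.63 points (exact sign-flip adjusted p = 0.612), and by 0.434 without WT replicate 3, 0.696 without rsCBE replicate 5 and 4.04 without WT replicate 4. With each clonotype counted once, Igkv2-112 was at 47.2% and all other V segments at 52.6%, a difference of -5.41 points that did not pass the test (exact sign-flip adjusted p = 0.502). Igkv2-109 was then at 59.4%, and its difference from Igkv2-112 passed with clonotypes counted once in each sample. Over the distinct clonotypes of all samples together, 92 of 191 were in-frame for Igkv2-109 and 123 of 259 for Igkv2-112, without a test.

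Between genotypes, the in-frame share of neither segment passed the test. Igkv2-109 averaged 71.9% ± 14.9 over the WT samples and 69.3% ± 7.42 over the rsCBE samples (SD, n = 5 each; difference -2.55 points, exact permutation adjusted p = 0.947). Igkv2-112 averaged 47.0% ± 20.5 and 51.2% ± 9.15 (SD, n = 5 each; difference 4.19 points, exact permutation adjusted p = 0.890). Neither direction held in both kinds of sample: the differences were -9.55 and -4.52 points within the samples of 1 library and 2.11 and 9.997 within those of 2 parts. Without WT replicate 1 or 3 the difference of Igkv2-109 was 0.295 or 2.37, and without WT replicate 4 or 5 that of Igkv2-112 was -2.19 or -0.409. Over the 66 V segments, 10 (15.2%) had an unadjusted p under 0.05 and 0 (0%) an adjusted one.

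Of the pair, Igkv2-112 held nearly all stop codons, a difference that was not tested. They took a mean of 6.77% of its counts, from 0 to 20.4% over the samples, against 0.433% for Igkv2-109 and 0.898% for all other V segments. Of the 91 counts of Igkv2-112 with a stop, 85 had the triplet TAG at codon 6 of the CDR3, on 25 of 31 clonotypes summed over samples. The germline reads gagtat at codons 5 and 6, so V bases that end at ta form TAG where the next base is a G. The most frequent such join was to J5 and was chosen after its values were seen. It held 57 counts in 8 samples, and capitals mark the bases that match J5.
Igkv2-112 with J5, stop: caacaacttgtagagtaGCTCACG
Igkv2-109, whose germline reads gaactt at the same codons, had 6 counts with a stop, and 0 of these were at codon 6. Stops of Igkv2-112 were found with J5 in 8 of 10 samples, with J2 in 5 of 9, with J4 in 2 of 10 and with J1 in 0 of 8 samples that had such counts, and the join to J5 shown above held 57 of the 69 stop counts with J5.

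Igkv2-112 also had the shorter CDR3. Its mean length was 25.3 nucleotides ± 0.492 over the WT samples and 25.5 ± 0.270 over the rsCBE samples (SD, n = 5 each), against 26.7 ± 0.174 and 26.2 ± 0.433 for Igkv2-109 and 26.6 for all other V segments. Igkv2-109 was longer than Igkv2-112 by 1.01 nucleotides ± 0.698 (SD, n = 10) and in 10 of 10 samples, though in rsCBE replicate 1 by only 0.00427 (exact sign-flip adjusted p = 0.00293). Igkv2-112 was shorter than all other V segments in 10 of 10 samples, with a mean difference of -1.21 nucleotides ± 0.382 (SD, n = 10; exact sign-flip adjusted p = 0.00477), where 11 of 66 V segments (16.7%) were called shorter. Between genotypes the mean length differed by -0.497 nucleotides for Igkv2-109 (exact permutation p = 0.0556, adjusted p = 0.458) and by 0.274 for Igkv2-112 (exact permutation p = 0.325, adjusted p = 0.938). The latter was 0.0988 without WT replicate 4, 0.167 without rsCBE replicate 1 and 0.417 without WT replicate 2. Over the 66 V segments 7 (10.6%) had an unadjusted p under 0.05 and 0 (0%) an adjusted one.

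**Figure D4:**
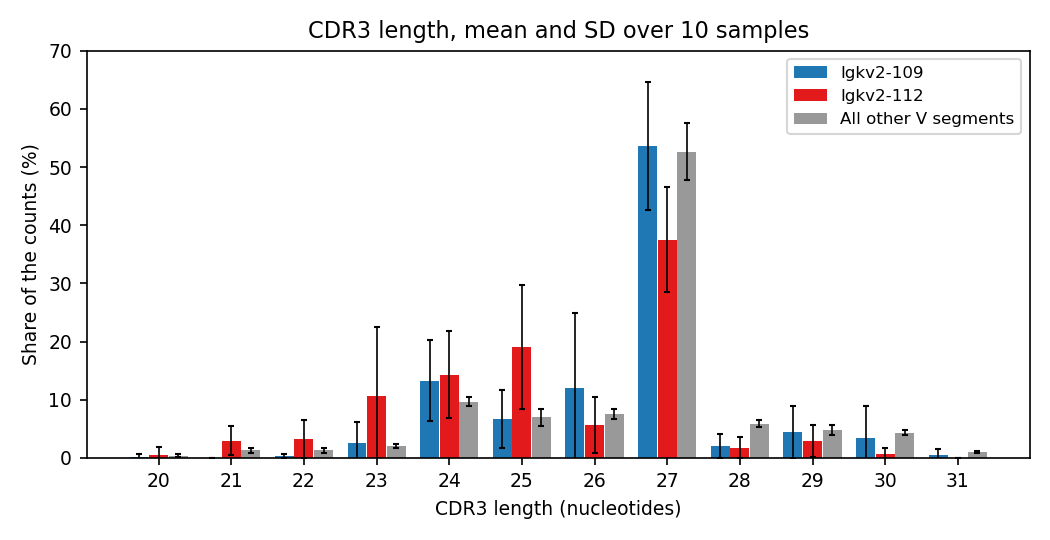
Share of the counts (%) by CDR3 length in nucleotides, as mean and SD over 10 samples, for Igkv2-109 (blue), Igkv2-112 (red) and all other V segments (grey). The 27-nucleotide bar is at 53.7% for Igkv2-109 and 37.5% for Igkv2-112, and the 25-nucleotide bar at 6.67 and 19.0%.

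Several sizes differed in share between the pair. A CDR3 of 27 nucleotides made up 53.7% ± 11.01 of the counts of Igkv2-109, 37.5% ± 8.96 of those of Igkv2-112 and 52.6% ± 4.91 of those of all other V segments (SD, n = 10 each). One of 25 nucleotides, which is out of frame, made up 6.67% ± 5.02, 19.0% ± 10.6 and 6.98% ± 1.42. At 26 nucleotides, also out of frame, Igkv2-109 had the higher mean, with 12.1% ± 12.7, 5.72% ± 4.81 and 7.48% ± 0.847 in the same order. Its samples ran from 0 to 44.4% there. One of 23 nucleotides made up 10.7% ± 11.7 of counts in Igkv2-112 and 2.62% ± 3.48 in Igkv2-109 (SD, n = 10 each), with 42.9% of Igkv2-112, or 6 of 14 counts, in WT replicate 4. Without that sample, an alternative chosen after seeing the data, the share in Igkv2-112 was 7.13% ± 3.32 (SD, n = 9). These shares were not tested.

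The most widely shared joins show which bases form a CDR3 of these segments. For each segment 3 clonotypes found in the most samples are given, with ties broken by summed share, where a clonotype is a distinct V, J and CDR3. Capitals mark the bases that match the J segment.
Igkv2-109 with J1: gctcaaaatctagaacttccGTGGACG
Igkv2-109 with J2: gctcaaaatctagaacttccGTACACG
Igkv2-109 with J5: gctcaaaatctagaacttccGCTCACG
Igkv2-112 with J5, out of frame: caacaacttgtagagtatcCTCACG
Igkv2-112 with J4: caacaacttgtagagtatccATTCACG
Igkv2-112 with J5, in frame: caacaacttgtagagtatccGCTCACG
The 3 joins of Igkv2-109 had 27 nucleotides, lacked the last 3 germline V bases and had no added base. They took a mean of 12.4, 10.3 and 8.69% of its counts over the 10 samples, and were found in 10, 10 and 9 samples. The J4 and in-frame J5 joins of Igkv2-112 were built alike, without its last 2 germline bases, and took 7.78 and 6.84% in 9 samples each. Of the others of Igkv2-112 that were also found in 9 samples, one, named after the values were seen, was an out-of-frame join of 23 nucleotides to J4, which took a mean of 4.99% of counts, or 3.16% without WT replicate 4, where it was 3 of 14 counts.
Igkv2-112 with J4, out of frame: caacaacttgtagagtATTCACG

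The first join of Igkv2-112 had 25 nucleotides and was out of frame. Its bases CTC can be read as the end of the V segment or as bases 2 to 4 of J5, as both germlines hold them. It took 6.06, 6.25, 17.3, 28.6 and 36.7% of the counts of Igkv2-112 in WT replicates 1 to 5 and 6.64, 5.96, 12.0, 20 and 4.80% in rsCBE replicates 1 to 5. It was found in all 10 samples, with the highest shares in WT replicates 4 and 5, which also had the lowest in-frame shares and few counts of Igkv2-112. The genotypes overlapped, at 19.0% ± 13.6 and 9.87% ± 6.29 (SD, n = 5 each), and were not tested for it. The matching join of Igkv2-109, also 25 nucleotides and out of frame and chosen after the values were seen, was in 7 samples and took 3.55% of counts.
Igkv2-109 with J5, out of frame: gctcaaaatctagaacttcCTCACG

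Over all joins, Igkv2-112 had more that shared bases between V and J. Joins with at least 1 base that matches both germlines made up 33.0% ± 10.5 of its counts and 13.5% ± 8.23 of those of Igkv2-109 (SD, n = 10 each), and were higher for Igkv2-112 in 10 of 10 samples. Joins with neither shared nor added bases made up 39.7% ± 15.4 and 68.0% ± 8.74, and were lower for Igkv2-112 in 10 of 10 samples. Joins with other bases between the 2 matches, called added here, made up 27.3% ± 9.27 and 18.5% ± 6.20. A V match ended at its first mismatch, so a mismatch within V was read as added bases: 101 of the 349 such counts of Igkv2-112 and 63 of the 173 of Igkv2-109 had 10 or more. Where 1 V mismatch followed by at least 5 matching bases was read through, an alternative chosen after seeing the data, joins with added bases were 21.8% ± 4.63 and 15.7% ± 5.58 (SD, n = 10 each). Those with shared bases were then 36.8% ± 16.7 and 14.2% ± 8.53, still higher for Igkv2-112 in 10 of 10 samples. Igkv2-109 lacked exactly its last 3 V bases in 44.97% of pooled counts, whereas Igkv2-112 kept its whole V end in 25.9% and lacked 2 bases in 28.9%. These are descriptions without a test, and a base that matches both germlines was assigned to V.

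Reading frame is given by J segment as a description without a test. Pooled over samples, Igkv2-112 was in-frame in 66.7% of 78 counts with J1, 60.5% of 271 with J2, 58.4% of 341 with J4 and 47.6% of 668 with J5. Igkv2-109 was in-frame in 75.2% of 306 counts with J1, 74.6% of 189 with J2, 78.8% of 132 with J4 and 62.6% of 278 with J5. The pooled order did not hold in each sample. Among the samples with counts for all 4 J segments, J5 had the lowest in-frame share in 4 of 9 for Igkv2-109, in 4 of 8 for Igkv2-112 and in 5 of 10 for all other V segments together. Igkv2-112 was below Igkv2-109 in 4 of 8 samples with J1, 4 of 9 with J2, 7 of 9 with J4 and 8 of 10 with J5.

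**Figure D5:**
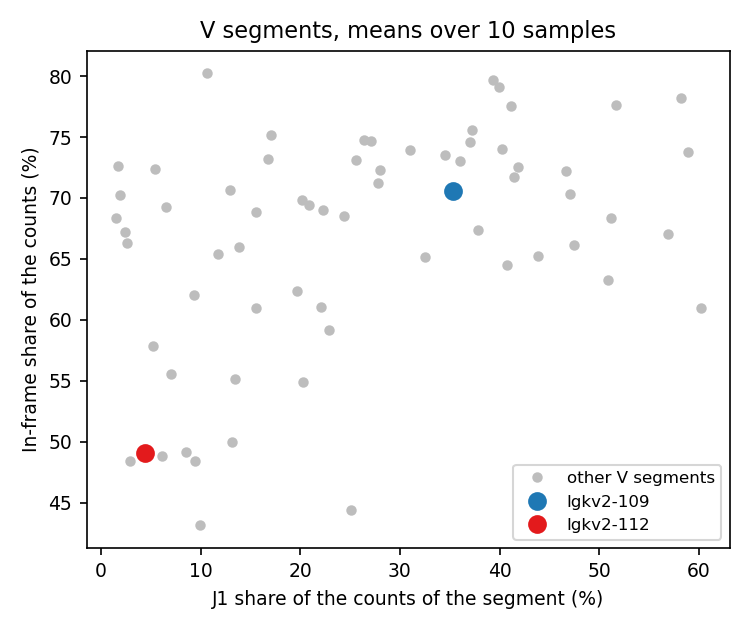
Mean J1 share (x axis, % of the counts of a V segment) against mean in-frame share (y axis, %) for the 66 V segments with at least 10 counts in every sample; each point is a V segment averaged over 10 samples. Igkv2-112 (red) is at 4.42 and 49.1%, near the lower left corner, and Igkv2-109 (blue) at 35.3 and 70.6%.

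Both segments were spread over many clonotypes. Igkv2-109 had 191 distinct clonotypes, 136 of them in 1 sample and 11 in 5 or more samples, and these 11 held 56.2% of its counts. Igkv2-112 had 259, with 195 in 1 sample and 23 in 5 or more, which held 66.1% of its counts. Per sample, Igkv2-109 had 54, 51, 25, 7 and 16 clonotypes in WT and 51, 61, 33, 23 and 16 in rsCBE. Igkv2-112 had 75, 63, 23, 5 and 16 in WT and 76, 84, 43, 35 and 41 in rsCBE. WT replicate 4, the shallowest sample, had the fewest of both, so its shares rest on 7 and 5 clonotypes.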

How the data were processed

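The deposited table gives, per the file headers, a V call for each read, a J call, the CDR3 and a count for each combination in 16 libraries. Counts are used as deposited by the authors: whole, unnormalized numbers. The submitters' processing notes name the build mm10; the program behind the V and J calls and whether a count is a molecule are not given in the sources used here. Alleles were merged, 49 duplicate lines merged, and parts a and b added. The members and lists were chosen with earlier results of these data known.

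Counts per V segment and per V-J pair went into edgeR 4.0.16 (R 4.3.3; quasi-likelihood F-test, total count as library size, filterByExpr, Benjamini-Hochberg, threshold 0.05). The fit was tested on simulated data, where 15 of 15 V segments (of 99) and 30 of 30 pairs (of 280) changed 3-fold were recovered, with 0 and 1 false calls. Recovery was not split by count and covers 3-fold changes only. It therefore gives no power for smaller changes, or for segments and V-J pairs with counts as low as those described here. DESeq2 1.42.0 was an alternative. Shares and lengths within a V segment were compared between genotypes by two-sided exact permutation of the 10 samples (smallest p 0.00794), and between segments by exact sign-flips of within-sample differences, over 66 V segments with at least 10 counts in every sample. The tests of J1, J2 and J4 between the pair, and of J1, J2 and J4 against all other V segments, were added to those planned for J5, frame and length, so values for the pair were adjusted over 6 measures. Joins were read against GENCODE M21 transcripts (GRCm38). Intervals are Wilson 95%, and a share of 0 is given with the limit of 3 counts of the total; both cover counting error only.

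Genes named were the pair, the other Igkv2 segments, their neighbours on the locus by number, the 5 V segments most like each in share, and the 3 clonotypes of each in the most samples (ties broken by summed share). The replicate numbers met the rule for pairs, a correlation over 0.1 between the deviations of all same-numbered samples, at 0.803, 0.795, 0.626, 0.133 and 0.366. Within the kind of sample (1 library or 2 parts) they did not, at 0.116, 0.116, 0.192, -0.250 and -0.233. Mean shares without WT replicate 4, the shallowest sample, the reading frame and stops by J segment in each sample, and joins read through 1 V mismatch were chosen after seeing the data.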

Additional observations from a re-analysis of the deposited data

How the results depend on the processing

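Depth limited these results: WT replicate 4 held 18 and 14 counts of the segments, so with a minimum of 20 counts in every sample neither segment could be tested, and that alternative gave no value. The samples of 1 library and of 2 parts were compared within themselves with 2 and 3 samples a genotype, where an exact test cannot go below 0.333 and 0.1.

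With a replicate block the V segments called went from 0 to 1, V-J pairs stayed at 0, and neither segment was called. For shares, lengths and the ratio between genotypes the block compares 5 pairs, which cannot give a p below 0.0625, so it says nothing of their stability. A term for the kind of sample gave 2 V segments and 7 V-J pairs by edgeR, the samples of 1 library alone gave 35 V-J pairs, and DESeq2 gave 2.

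Calls of differences within samples were lost in subsets of 4 to 6 samples, where the smallest p of 5 samples is 0.0625, while the direction held. For Igkv2-112 minus all other V segments in WT alone, rsCBE alone, samples of 1 library and samples of 2 parts, J5 was 20.8, 12.4, 11.1 and 20.2 points, the in-frame share -23.8, -14.2, -13.5 and -22.7 points, and the length -1.36, -1.06, -0.910 and -1.41 nucleotides. With each clonotype counted once the in-frame difference was -5.41 points and no longer passed; the cause was not tested. For Igkv2-109 minus Igkv2-112 in WT alone, rsCBE alone and samples of 1 library, J5 was -19.8, -13.8 and -18.4 points, the in-frame share 24.9, 18.1 and 11.8 points, and the length 1.40, 0.627 and 0.563 nucleotides; J5 in samples of 2 parts was -15.8 points.

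Several values that had not passed a test changed sign, and the cause was not tested. For rsCBE minus WT in samples of 1 library, J2 of Igkv2-109 was -0.137, its J4 -3.28, and for Igkv2-112 J1 was -3.98, J2 -1.88, the in-frame share -4.52 and the length -0.0129. With each clonotype counted once, J2 of Igkv2-109 was -0.534, and for Igkv2-112 J1 was -0.610, the in-frame share -5.32 and the length -0.0465. In samples of 2 parts the in-frame share of Igkv2-109 was 2.11 and J5 of Igkv2-112 -5.25. Without clonotypes of 1 count the in-frame share of Igkv2-109 was 1.43, with part a alone J1 of Igkv2-112 was -0.256, and with part b alone its J5 was -0.836. Leaving out 1 sample at a time, the in-frame share of Igkv2-109 ran from -6.63 to 2.37, J1 of Igkv2-112 from -1.02 to 2.31, its J5 from -1.62 to 7.24 and its in-frame share from -2.19 to 8.81.

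For Igkv2-109 minus all other V segments, J5 was 0.689 without clonotypes of 1 count, 0.886 with part a alone, 0.776 in WT alone, 4.33 in samples of 2 parts and -2.29 to 0.673 when leaving out 1 sample, and it passed, at -4.29, with each clonotype counted once (exact adjusted p = 0.0198). In samples of 1 library J4 was 1.57 and the in-frame share -1.55, and the length was 0.0469 in WT alone. J2 of Igkv2-112 minus all other V segments was 0.951 in rsCBE alone. J2 of Igkv2-109 minus Igkv2-112 was -1.41 in rsCBE alone and ran from -0.289 to 4.17 when leaving out 1 sample. The difference in log2 ratio of Igkv2-109 to Igkv2-112 passed with each clonotype counted once (-0.64) and without WT replicate 2, and ran from -0.75 to -0.43 when leaving out 1 sample. In the same way, the log2 fold change of usage ran from -0.22 to -0.03 for Igkv2-109 and from 0.28 to 0.50 for Igkv2-112, and J4 of Igkv2-109 minus Igkv2-112 from -17.5 to -10.6.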

Other observations

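Low use of J1 was also seen in Igkv2-137, a relative of both segments. Its J1 share averaged 2.02% ± 1.57 over the WT samples and 1.86% ± 0.951 over the rsCBE samples (SD, n = 5 each), below all other V segments of the same library in 10 of 10 samples (exact sign-flip adjusted p = 0.00339). Igkv2-137 was joined most to J2, at 47.0% of its counts, the highest mean J2 share of the 66 V segments, and J5 took 28.6%. Its in-frame share was 70.3% and its mean CDR3 length 26.9 nucleotides, both closer to Igkv2-109 than to Igkv2-112. The V segments that lie between Igkv2-109 and Igkv2-112 had J1 shares of 37.0% (Igkv1-110) and 17.1% (Igkv14-111). Igkv11-106, a pseudogene, had an in-frame share of 44.4%.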
